A study of Rattus norvegicus with 6 samples.

Results

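The genes of the collagens, laminins and integrins, together with the nidogens, fibronectin, fibrillins, elastin, tenascins and thrombospondins, were followed through lists of genes with a peak of trimethylated lysine 27 of histone H3 (H3K27me3). Members were chosen by gene symbol alone, as every listed gene whose symbol has the form of one of these families, and 95 of the 22427 genes named by any of the 4 lists qualified. Of these, 41 encode collagens, 12 laminins or nidogens, 26 integrin subunits and 12 other matrix proteins. The remaining 4 match by spelling and encode neither a matrix protein nor an integrin: Col4a3bp (a ceramide transfer protein), the integrin-binding protein genes Itgb1bp1 and Itgb1bp2, and Itgb3bp, which encodes a centromere protein. For short, counts of matrix and integrin genes below include these 4 unless the families are given apart.

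The cells were primary cardiomyocytes isolated from the hearts of neonatal Sprague Dawley rats and grown in medium with 10% serum. One group received 5 mM α-ketoglutarate (α-KG) for 24 h and the other phosphate-buffered saline (PBS, control) for the same time. Each group has 2 H3K27me3 chromatin immunoprecipitation sequencing libraries, α-KG 1 and α-KG 2 against control 1 and control 2, and the 2 input samples, labelled IgG, were not analysed here. The labels do not say whether replicates were separate cultures, so the spread between them may be technical. No genotype or transgene is involved, and the labels do not give the purity of the cultures.

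H3K27me3 is placed by Polycomb repressive complexes, usually over CpG-rich promoters of genes that are off in a given cell, and is removed by demethylases that use α-KG as a cosubstrate. Collagens are trimers of chains with a Gly-X-Y repeat that form the fibrils and networks of the extracellular matrix. Laminins are α, β and γ chain heterotrimers of basement membranes, which surround each cardiomyocyte, and integrins are αβ heterodimers that couple such matrix to the cytoskeleton. In the heart most fibrillar collagen is made by fibroblasts, whereas cardiomyocytes contact laminin through integrin α7β1.

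A gene is either listed for a library or not listed. No height, position or read depth comes with the lists, so absence from a list can mean no mark or one too weak to detect, and a listing does not show where in or near the gene the peak lay. α-KG 1 listed 18120 and α-KG 2 19181 genes, against 17245 in control 1 and 18442 in control 2. A peak at a cell type marker gives no expression level and so cannot check the labelled cell type. Of 7 cardiomyocyte genes checked, Tnnt2, Actn2 and Myl2 were in all 4 lists, Tnni3 was in α-KG 1 alone, and Myh6, Myl3 and Ttn had no entry. Of 5 fibroblast genes, Pdgfra, Tcf21, Dcn and Postn were in all 4 lists and Lum in control 1 alone. Endothelial genes numbered 4 and 5 of 5 in α-KG 1 and α-KG 2, against 3 and 5 of 5 in control 1 and control 2, and smooth muscle and pericyte genes 3 and 2 of the 3 with an entry, against 1 and 3. Both immune genes with an entry, Ptprc and Csf1r, were in all 4 lists. The part of other cell types in the results below was not tested.

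Most matrix and integrin genes carried a peak whatever the treatment, as did most listed genes. Of the 95, 65 (68.4%) were in all 4 lists, beside a background of 62.8% over all listed genes. A further 17 were in 3 lists, 7 in 2 and 6 in 1. Without the spelling matches, 63 of 91 genes (69.2%) were in all 4 lists. The collagen, laminin and nidogen, integrin and other matrix families were close to each other in the share present in all 4, with 29 of 41 (70.7%), 8 of 12 (66.7%), 18 of 26 (69.2%) and 8 of 12 (66.7%). RefSeq annotates 5 further protein-coding genes with symbols of this form that had no entry, namely Col1a2, Col20a1, Col28a1, Itgax and Lamb2. Of the 97 protein-coding genes of this form in RefSeq, these included, 64 (66.0%) were in all 4 lists.

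The question the design sets is whether α-KG changed which genes carried the mark. α-KG 1 listed 84 and α-KG 2 listed 87 of the 95 genes, against 77 in control 1 and 83 in control 2. Both α-KG libraries thus lay above both controls, but α-KG 1 exceeded control 2 by a single gene. Over all listed genes the groups overlapped, since α-KG 1, with 18120 genes, lay below control 2, with 18442. The means were 85.5 ± 2.12 genes with α-KG and 80.0 ± 4.24 genes in control (SD, n = 2 each), a difference of 5.5 genes, which is 6.88% of the mean in control. Over all listed genes it was 4.52% of the mean in control. The exact permutation test over the 4 libraries, two-sided, gave p = 0.33, the smallest value that 2 against 2 can give, so this design cannot separate the groups. The difference was 2.5 genes without control 1, which listed the fewest, and 8.5 genes without control 2.

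**Figure D1:**
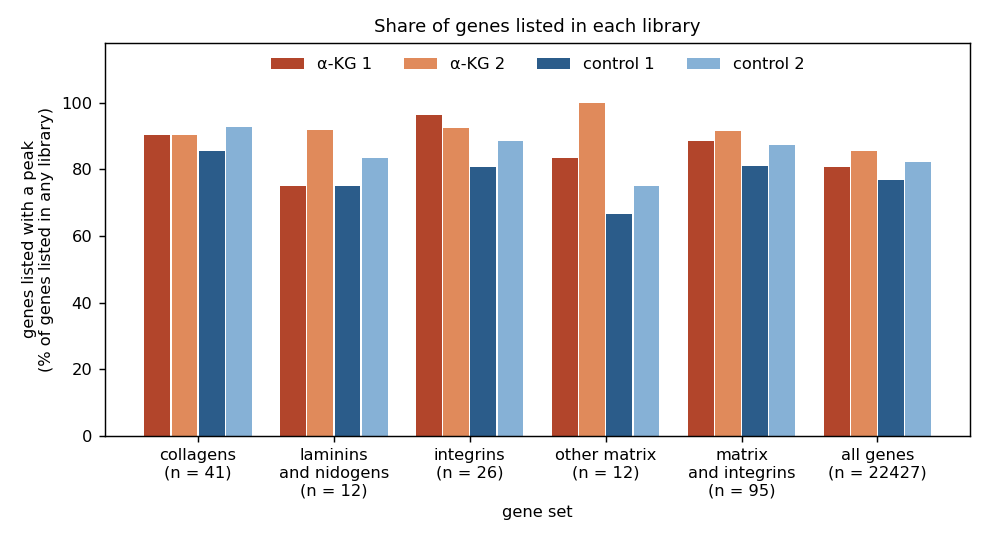
Bars give, for each library, the percentage of the genes of each family (collagens, laminins and nidogens, integrins, other matrix proteins), of all 95 matrix and integrin genes, and of all 22427 genes that the library listed with an H3K27me3 peak. For integrins and other matrix genes both α-KG bars stand above both control bars, with 96.2% and 92.3% against 80.8% and 88.5% of integrins, whereas the groups overlap for collagens, with 90.2% in both α-KG libraries against 85.4% and 92.7% in the controls, and for all genes, with 80.8% and 85.5% against 76.9% and 82.2%.

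The families did not share that order. Integrin genes numbered 25 and 24 of 26 in α-KG 1 and α-KG 2, against 21 and 23 in control 1 and control 2. Other matrix genes numbered 10 and 12 of 12 with α-KG, against 8 and 9 in control. In these 2 families the treatment groups did not overlap, although the nearest counts were 24 against 23 for integrins and 10 against 9 for other matrix genes. Over all genes, with 80.8% and 85.5% listed with α-KG against 76.9% and 82.2% in control, the treatment groups overlapped. Laminins and nidogens numbered 9 and 11 of 12 with α-KG, against 9 and 10 in control. Collagens numbered 37 of 41 in each α-KG library, against 35 and 38 in control, so their groups overlapped.

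Lamb3 was the 1 gene lost with α-KG, where loss means that both control lists name a gene and that α-KG 1 and α-KG 2 do not. Lamb3 (ENSRNOG00000006025) encodes the laminin β3 chain, which is found in epithelial basement membranes. It was 1 of the 72 matrix and integrin genes listed in both controls (1.39%), beside a background of 3.22% over all genes. Itga2 (ENSRNOG00000011877), which encodes the α2 subunit of a collagen receptor found on platelets and epithelial cells, and Tnn (ENSRNOG00000002548), which encodes tenascin-N (also called tenascin-W), showed the reverse pattern and were gained. They were 2 of the 78 genes listed in both α-KG libraries (2.56%), beside a background of 4.48%. With 1 and 2 genes neither share is a result about the families, and both moved with single libraries. Lost genes numbered 5 without α-KG 1, 3 without α-KG 2, 2 without control 1 and 1 without control 2, and their share, 1.3% to 6.94%, lay below that of all genes each time. Gained genes numbered 7, 2, 5 and 10 in the same order. The gained share was 2.38% without α-KG 2, beside 6.53% of all genes, and 12.8% without control 2, above the 11.2% of all genes. Presence in both libraries of a group is a count over 2 libraries and carries no test.

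These 3 genes and the first gene by symbol of each family among those in all 4 lists and among those in 1 or 2 lists, as far as RefSeq gives a promoter, are shown with the 250 bases before the annotated start. The sequences are from RefSeq, build GRCr8, which is not the build named for the lists (rn6). They run 5′ to 3′ along the gene, and capitals mark the CpG dinucleotide (CG, the same on both strands), the feature over which Polycomb marks are usually found. The lost gene Lamb3 lies at chr13:107362303-107362552 on the plus strand, and the gained genes Itga2 and Tnn at chr2:48354510-48354759 on the minus strand and chr13:74919790-74920039 on the minus strand.
Lamb3: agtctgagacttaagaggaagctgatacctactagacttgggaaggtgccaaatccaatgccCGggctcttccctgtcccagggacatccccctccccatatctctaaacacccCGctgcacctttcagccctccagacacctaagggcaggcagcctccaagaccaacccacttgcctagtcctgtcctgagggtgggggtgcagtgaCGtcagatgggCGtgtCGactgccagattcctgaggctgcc
Itga2: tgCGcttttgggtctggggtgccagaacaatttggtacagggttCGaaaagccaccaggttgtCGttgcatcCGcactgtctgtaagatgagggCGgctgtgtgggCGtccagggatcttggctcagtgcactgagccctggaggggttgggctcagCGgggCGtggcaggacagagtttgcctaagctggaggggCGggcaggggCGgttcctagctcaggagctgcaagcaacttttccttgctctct
Tnn: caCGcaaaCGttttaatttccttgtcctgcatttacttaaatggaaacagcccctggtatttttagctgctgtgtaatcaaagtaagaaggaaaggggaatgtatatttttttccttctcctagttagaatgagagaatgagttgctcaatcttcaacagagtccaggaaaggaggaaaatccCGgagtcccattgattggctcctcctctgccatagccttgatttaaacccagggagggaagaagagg

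Genes in all 4 lists are represented by Col11a1 (a fibrillar collagen), at chr2:204508886-204509135 on the plus strand, Lama1 (laminin α1), at chr9:115139298-115139547 on the plus strand, Itga1 (a collagen-binding integrin), at chr2:48545284-48545533 on the minus strand, and Fbn1 (fibrillin-1 of microfibrils), at chr3:133203391-133203640 on the minus strand.
Col11a1: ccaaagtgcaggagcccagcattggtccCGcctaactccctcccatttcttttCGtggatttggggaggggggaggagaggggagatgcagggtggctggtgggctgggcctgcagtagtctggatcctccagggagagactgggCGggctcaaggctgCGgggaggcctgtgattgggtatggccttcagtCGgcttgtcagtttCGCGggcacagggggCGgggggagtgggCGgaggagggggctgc
Lama1: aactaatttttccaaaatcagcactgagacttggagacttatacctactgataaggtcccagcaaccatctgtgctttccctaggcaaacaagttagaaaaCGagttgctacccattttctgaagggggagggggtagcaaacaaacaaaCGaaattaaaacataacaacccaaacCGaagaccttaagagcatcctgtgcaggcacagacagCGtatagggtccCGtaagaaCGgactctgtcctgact
Itga1: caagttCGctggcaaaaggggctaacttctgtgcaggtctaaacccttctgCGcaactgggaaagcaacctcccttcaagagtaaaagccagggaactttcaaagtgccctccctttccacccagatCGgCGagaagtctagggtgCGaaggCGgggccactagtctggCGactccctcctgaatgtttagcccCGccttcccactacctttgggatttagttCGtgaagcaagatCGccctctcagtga
Fbn1: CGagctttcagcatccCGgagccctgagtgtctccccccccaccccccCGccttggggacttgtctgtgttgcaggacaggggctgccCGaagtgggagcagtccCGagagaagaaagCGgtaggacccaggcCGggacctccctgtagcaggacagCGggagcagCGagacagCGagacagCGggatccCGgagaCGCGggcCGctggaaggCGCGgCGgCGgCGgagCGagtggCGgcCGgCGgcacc

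Genes in 1 or 2 lists are represented by Col10a1 (the collagen of hypertrophic cartilage, in α-KG 1 and control 2), at chr20:39737286-39737535 on the plus strand, Lamb1 (laminin β1, in α-KG 2 alone), at chr6:53562846-53563095 on the plus strand, Itga10 (a collagen-binding integrin of cartilage, in control 2 alone), at chr2:186871461-186871710 on the plus strand, and Fbn2 (fibrillin-2, in α-KG 2 alone), at chr18:53901993-53902242 on the minus strand.
Col10a1: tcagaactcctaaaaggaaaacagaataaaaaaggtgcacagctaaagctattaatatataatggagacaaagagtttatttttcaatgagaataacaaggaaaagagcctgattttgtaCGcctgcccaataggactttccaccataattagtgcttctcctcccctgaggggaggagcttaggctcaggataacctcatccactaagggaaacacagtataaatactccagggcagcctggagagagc
Lamb1: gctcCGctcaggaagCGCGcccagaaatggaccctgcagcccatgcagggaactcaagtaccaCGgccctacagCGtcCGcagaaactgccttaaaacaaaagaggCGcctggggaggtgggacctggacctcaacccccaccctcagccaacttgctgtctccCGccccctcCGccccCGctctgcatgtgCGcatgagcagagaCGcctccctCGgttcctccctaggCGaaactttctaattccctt
Itga10: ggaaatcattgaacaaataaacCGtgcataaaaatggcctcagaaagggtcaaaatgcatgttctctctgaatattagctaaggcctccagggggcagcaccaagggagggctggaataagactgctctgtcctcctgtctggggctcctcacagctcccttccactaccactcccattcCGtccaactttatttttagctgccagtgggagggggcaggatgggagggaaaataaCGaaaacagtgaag
Fbn2: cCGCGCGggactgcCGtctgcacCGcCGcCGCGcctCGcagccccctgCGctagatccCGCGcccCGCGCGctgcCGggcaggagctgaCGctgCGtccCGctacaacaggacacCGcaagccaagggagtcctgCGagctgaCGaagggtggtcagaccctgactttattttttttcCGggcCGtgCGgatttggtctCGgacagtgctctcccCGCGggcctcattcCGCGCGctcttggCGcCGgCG

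The printed windows hold 5 CpGs for Lamb3, 10 for Itga2 and 3 for Tnn. The 4 genes in all lists hold 9 (Col11a1), 6 (Lama1), 10 (Itga1) and 24 (Fbn1). The 4 in 1 or 2 lists hold 1 (Col10a1), 14 (Lamb1), 3 (Itga10) and 34 (Fbn2). Col10a1 and Itga10 are thus CpG-poor, while Fbn2, present in a single list, is the richest of the 11.

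With the families pooled, genes in all 4 lists had more CpG-rich promoters, by the median, than the others. The CpG ratio is the number of CpGs divided by the number that the window's C and G content would give by chance. RefSeq gave a promoter for 71 of the 95 genes, some spelling matches included. The median ratio was 0.57 in the 47 genes in all 4 lists and 0.33 in the 24 genes in fewer, a difference of 0.24. Over all listed genes with a symbol and a promoter the medians were 0.70 (7719 genes) and 0.59 (4198 genes), the same order at higher ratios. The order did not continue down to single lists: the medians were 0.30 for 12 genes in 3 lists, 0.37 for 6 genes in 2 and 0.50 for 6 genes in 1. The ranges overlapped, from 0.00 to 1.01 in the 47 genes and from 0.06 to 1.12 in the 24. Laminins and nidogens did not follow the pooled order. Those in all 4 lists were Lama1 (0.48), Lama2 (0.1), Lama3 (0.29), Lama4 (0.47), Lama5 (0.6) and Lamc1 (0.63). Those in fewer were Lamb1 (0.62), Lamb3 (0.24), Lamc3 (0.51) and Nid1 (0.59). Col9a1 and Tnr (tenascin-R) had no CpG in the window and were in all 4 lists. At least 1 CpG occurred in 69 of these 71 promoters (97.2%) and in 92.2% of all 33469 RefSeq windows of this length. These are descriptions across genes, which are not replicates, and no test was made.

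**Figure D2:**
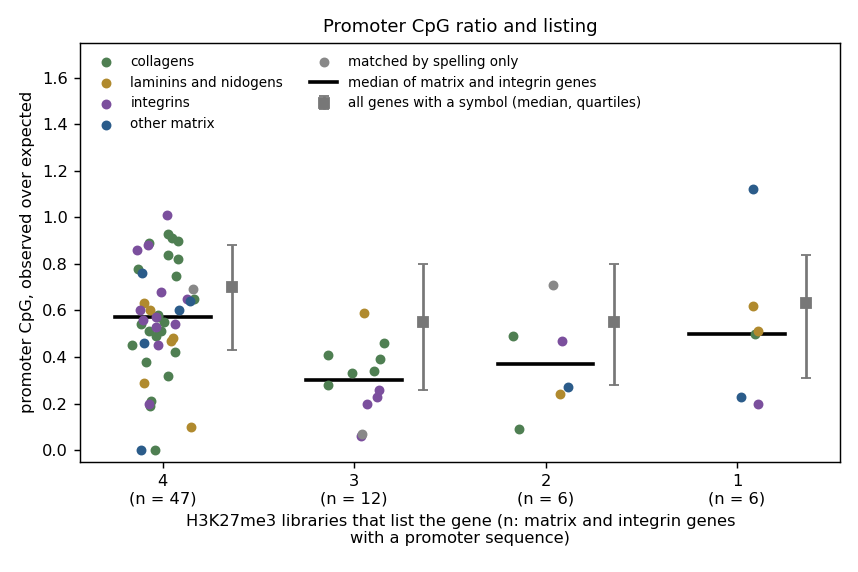
Each point is 1 matrix or integrin gene, placed by the number of H3K27me3 libraries that list it (horizontal axis) and by the observed over expected CpG ratio of the 250 bases before its start (vertical axis, no unit). Black lines are medians of these genes, and grey squares with bars are the median and quartiles of all listed genes with a symbol; the black lines stand at 0.57, 0.30, 0.37 and 0.50 for 4, 3, 2 and 1 libraries.

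Fibril-forming collagens varied between libraries of the same group. Of 10 such genes, 6 were in all 4 lists: Col2a1, Col5a1, Col5a3, Col11a1, Col24a1 and Col27a1. α-KG 1 listed 7 and α-KG 2 listed 9, against 9 in each control. Col1a1, the main chain of type I collagen, and Col11a2, a minor cartilage fibril chain, were absent from α-KG 1 alone. Col3a1, the type III chain abundant in cardiac stroma, was in α-KG 2 and control 1, whereas Col5a2, which helps start fibrils, was in α-KG 1 and control 2. None of these 4 divided by treatment.

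Type IV collagen, the network of basement membranes, was listed nearly in full. Col4a1, COL4A2, Col4a4, Col4a5 and Col4a6 were in all 4 lists, and Col4a3 was missing from α-KG 2. Among type VI genes, which form beaded microfibrils around cells, Col6a1, Col6a2, Col6a3 and Col6a5 were in all 4, while Col6a4 and Col6a6 were missing from control 1 alone. α-KG 1 and α-KG 2 listed all 6 type VI genes, against 4 in control 1 and 6 in control 2. FACIT collagens, which sit on the surface of fibrils, were complete in α-KG 1 (8 of 8), with 7 in α-KG 2, against 8 in control 1 and 7 in control 2. Col9a1, Col9a3, Col12a1, Col14a1, Col16a1 and Col19a1 were in all 4, Col22a1 was missing from α-KG 2 and Col9a2 from control 2. The transmembrane collagens Col13a1, Col17a1, Col23a1 and Col25a1, the short-chain Col8a1 and Col8a2, and Col26a1 were in all 4. So was Col18a1, which encodes the precursor of endostatin, and its relative COL15A1 was missing from control 1 alone. Col10a1 was in α-KG 1 and control 2. Col7a1, which forms the anchoring fibrils of skin, was in α-KG 2 alone. Presence in all but 1 library therefore came from each of the 4 libraries in turn within the collagens.

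Lama1 to Lama5, the α chains that bind cell receptors, were in all 4 lists, 5 of 5. Neither β chain with an entry was: Lamb3 was in both controls alone and Lamb1, the widespread β chain, in α-KG 2 alone. Lamc1, the γ chain of most laminins, was in all 4, and Lamc3 was in α-KG 2 alone. Of the nidogens, which link laminin to type IV collagen, Nid2 was in all 4 and Nid1 was missing from control 1.

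Of the 17 integrin α subunit genes, both α-KG libraries listed 16 (94.1%), against 13 in control 1 (76.5%) and 14 in control 2 (82.4%). These groups did not overlap, although the nearest counts were 16 against 14. Over all genes the groups overlapped, at 80.8% and 85.5% with α-KG against 76.9% and 82.2% in control. No test was made on the α subunits or compared them with β subunits. In all 4 lists were 11 of the 17 (64.7%), near the background of 62.8%. Among collagen receptors, Itga1 and Itga11 were in all 4, Itga2 was gained, and Itga10 was in control 2 alone. Among laminin receptors, Itga3 and Itga6 were in all 4, and Itga7, whose product is the main laminin-binding α subunit of adult heart muscle, was missing from control 1. Of the subunits that bind the Arg-Gly-Asp motif, Itga5, Itga8 and Itgav were in all 4 and Itga2b, the platelet subunit, was missing from control 2. Itga9 was in all 4 and Itga4 was missing from control 2. The leukocyte genes Itgal, Itgam and Itgad were in all 4 and Itgae was missing from control 1.

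For the β subunit genes the groups overlapped. α-KG 1 listed 9 and α-KG 2 listed 8 of 9, against 8 in control 1 and 9 in control 2. Itgb1, the partner of most α subunits in heart muscle, and Itgb2, Itgb3, Itgb4, Itgb5, Itgb6 and Itgb8 were in all 4. Itgb7, a leukocyte subunit, was missing from control 1 and Itgb2l, a β2-like gene, from α-KG 2.

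Among other matrix genes, FN1 (fibronectin), Fbn1, Eln (elastin), Thbs1, Thbs2, Thbs4, Tnc and Tnr were in all 4 lists. Tnxb (tenascin-X) was missing from control 1, Tnn was gained, and Fbn2 and Thbs3 were in α-KG 2 alone. Of the 4 genes matched by spelling, Col4a3bp and Itgb1bp1 were in all 4, Itgb1bp2 was missing from α-KG 2, and Itgb3bp was in α-KG 2 and control 1.

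**Figure D3:**
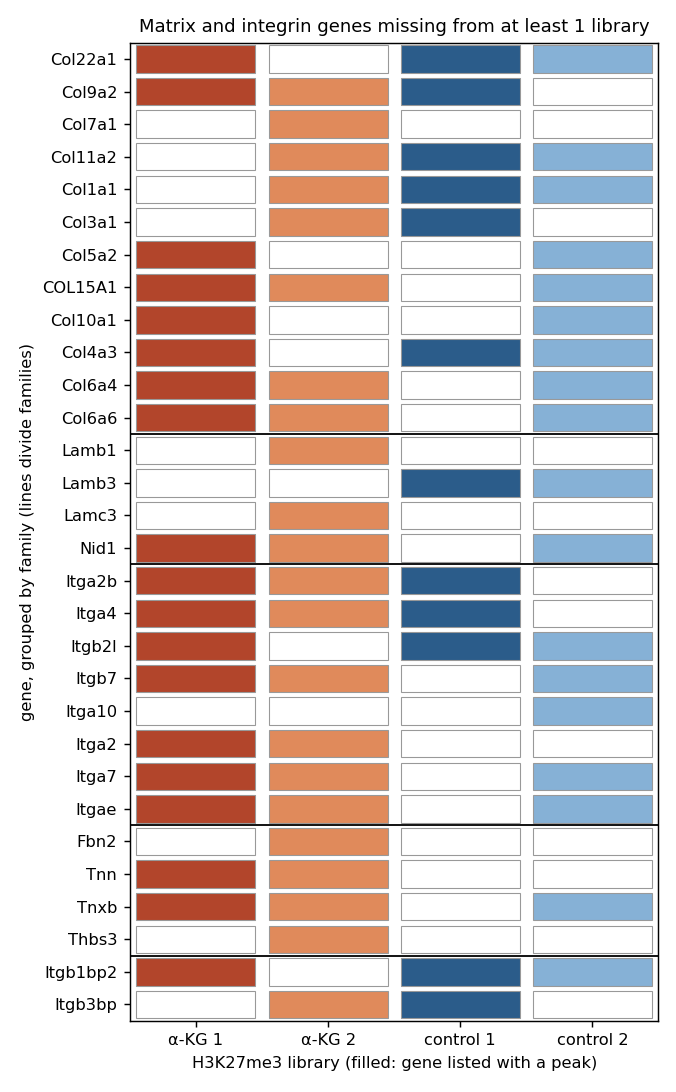
Rows are the 30 matrix and integrin genes (with the spelling matches last) that were missing from at least 1 library, grouped by family, and columns are the 4 libraries; a filled cell means that the library listed the gene with an H3K27me3 peak. Itga2 and Tnn are filled in both α-KG columns alone, Lamb3 in both control columns alone, and 5 genes in the α-KG 2 column alone.

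Among the 30 variable genes, most were set apart by a single library. In 23 (76.7%) 1 library stood apart from the other 3, beside 69.5% of the 8350 variable genes of the whole series. In 3 (10.0%, Lamb3, Itga2 and Tnn) the libraries divided by treatment, beside 14.9% over all variable genes, and in 4 they divided otherwise into 2 and 2. Of the 30, 8 (COL15A1, Col6a4, Col6a6, Itga7, Itgae, Itgb7, Nid1 and Tnxb) were missing from control 1 alone, 8.42% of the 95 beside 4.91% of all genes. A further 5 (Col7a1, Fbn2, Lamb1, Lamc3 and Thbs3) were in α-KG 2 alone, 5.26% beside 6.96% of all genes. Control 1 had the shortest list of all genes and α-KG 2 the longest. Counting any excess, 18 genes (18.9%, background 18.8%) were in more α-KG than control lists, and 8 (8.42%, background 12.6%) in fewer.

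Pairs of libraries of the same treatment did not all lie closer than pairs of different treatment. The listing of 15 genes differed between α-KG 1 and α-KG 2 and that of 16 between control 1 and control 2. Between treatments, 9 genes differed for α-KG 1 and control 2, 17 for α-KG 1 and control 1, and 20 each for α-KG 2 and either control. The pair with the fewest differences thus crossed the treatments. Over all genes that pair differed at 17.5% of genes, beside 9.47% of the 95, and the controls differed at 16.4% of all genes, beside 16.8% of the 95. Each library enters several pairs, and these values carry no test.

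**Figure D4:**
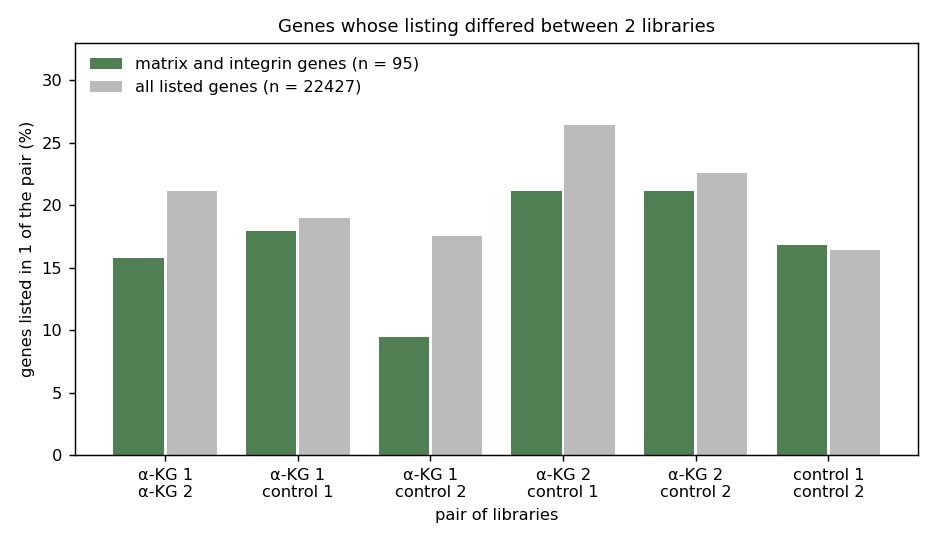
For each pair of libraries, green bars give the percentage of the 95 matrix and integrin genes, and grey bars that of all 22427 genes, listed in 1 library of the pair and not in the other. The green bars stand at 15.8% for the α-KG pair, at 9.47% to 21.1% for pairs that cross the treatments and at 16.8% for the control pair.

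Enzymes and partners of these proteins showed no loss or gain. The prolyl and lysyl hydroxylases that modify collagen, most of which use α-KG as a cosubstrate, had 8 and 9 of 10 genes in α-KG 1 and α-KG 2, against 6 and 10 in control 1 and control 2. Of these, P4ha1, P4hb and Plod3 were missing from control 1 alone, Plod1 from α-KG 1 alone, and P3h3, listed as Leprel2, was in control 2 alone. The other 5, P4ha2, P4ha3, P3h1 (listed as Lepre1), P3h2 (listed as Leprel1) and Plod2, were in all 4 lists. Collagen cross-linking genes (Lox, Loxl1, Loxl2 and Loxl4) were in all 4, and Loxl3 had no entry. Folding and trimming genes had 7 and 8 of 9 with α-KG, against 5 and 9 in control, with the collagen chaperone gene Serpinh1 missing from control 1 alone. Other basement membrane and receptor genes had 10 and 11 of 12 with α-KG, against 9 and 11 in control, with Hspg2 (perlecan), Agrn and Ddr2 (a collagen receptor) in all 4 and Ddr1 in α-KG 2 alone. Genes of the integrin adhesion complex had 16 and 19 of 20 with α-KG, against 15 and 19 in control. There, Vcl (vinculin), Zyx (zyxin) and Nedd9 were missing from control 1 alone and Ptk2 (focal adhesion kinase) was in control 2 alone. In each of these 5 lists 0 genes were lost and 0 gained, beside background shares of 3.22% and 4.48%, so lists this short would hold few in any case.

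Genes that lie side by side did not always share their lists, although neighbours can share a peak. In RefSeq gene order 11 neighbouring pairs of genes with symbols of this form were found. In 4 of them both genes had the same lists, all 4 in each case. The pairs of Itgax with Itgam and with Itgad could not share lists, because Itgax had no entry. No share was computed for neighbouring pairs over all genes, so these counts have no background beside them. COL4A2 and Col4a1, which encode the chains of the same type IV trimer, are divergent, with starts 77 bases apart in GRCr8. The 76 bases between, at chr16:84885521-84885596 and written 5′ to 3′ on the plus strand, are shown because both genes start from this stretch, with CpG in capitals.
COL4A2 to Col4a1: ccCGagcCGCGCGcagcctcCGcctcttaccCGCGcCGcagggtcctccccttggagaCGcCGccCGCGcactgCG

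That stretch holds 13 CpGs. Further pairs in all 4 lists were Col6a1 and Col6a2, and Col9a1 and Col19a1. The divergent pair Col4a4 and Col4a3, with starts 413 bases apart, differed, since Col4a3 was missing from α-KG 2. Itga2, gained with α-KG, lies next to Itga1, which was in all 4 lists. Col3a1 and Col5a2 lie side by side and had no list in common. Col6a5, in all 4, lies between Col6a6 and Col6a4, which were both missing from control 1.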

How the data were processed

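H3K27me3 libraries of neonatal rat cardiomyocytes, 2 with α-KG and 2 with PBS, were grouped and numbered by their labels. The authors deposited, per library, a list without header or numbers that pairs each Ensembl gene ID with a symbol and protein domain names, here read from the values. CASAVA, BWA, MACS2 and rn6 are named in the submitters' processing notes without roles or versions. Peak settings, use of an input and the assignment of peaks to genes are, in the sources used here, not given, and depth is unknown, so no interval that needs it is given. Members, classes and other gene lists were chosen with earlier results of these data known. Symbols were matched ignoring case, giving COL15A1, COL4A2 and FN1 as written. Every member missing from a library is named, and 1 other member is not reported here. Counts were made with Python 3.11.15, pandas 2.3.3 and numpy 2.4.6, checked on simulated lists, and drawn with matplotlib 3.10.9. The number of listed members was compared between groups with the exact permutation test, two-sided. RefSeq tables (GRCr8) gave symbols for 92 of 95 members, gene order and promoters. Where RefSeq gave several starts, the median ratio was used. Results were recomputed without each library in turn, with a replicate block, other units, member sets, denominators and promoter windows, and looser rules for loss and gain.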

Additional observations from a re-analysis of the deposited data

How the results depend on the processing

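The difference in listed members stayed positive under every alternative run, from 2.5 to 8.5 genes without 1 library and 5.0 to 6.0 with other member sets. Members lost numbered 1 to 5 and members gained 2 to 10 without 1 library, which follows from fewer libraries having to share the pattern. Without α-KG 1, Col22a1, Col4a3, Itgb1bp2 and Itgb2l joined Lamb3 as lost, and Col7a1, Fbn2, Lamb1, Lamc3 and Thbs3 joined the gained. Without α-KG 2, Col11a2 and Col1a1 joined the lost, and without control 1, Itga10. The gained count was 5 without control 1 and 10 without control 2. Over all genes the lost share was then 5.24% to 8.55% and the gained share 6.53% to 11.9%. By the looser rule, 8 members (8.42%, background 12.6%) were in more control than α-KG lists. In more α-KG than control lists were 18 (18.9%, background 18.8%). Members in all libraries numbered 63 to 73 under the alternatives run. The promoter difference ranged from 0.18 to 0.29. With a replicate block the difference was 5.5 genes, 7 in pair 1 and 4 in pair 2, and an exact sign-flip test gave p = 0.5, the smallest it can give. By the labels, the libraries of a pair share a number and nothing else is stated. The correlation over 22427 genes of α-KG 1 minus α-KG 2 with control 1 minus control 2 was 0.0478. Listing carries no signal level, so this value cannot show whether a pair shared a culture. Unknown depth limits every missing entry.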

Other observations

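Domain names in the lists extend the families to other genes built from the same parts, chosen after their values were seen. All 41 collagen genes carry the collagen triple helix repeat, as do 37 genes of other families, such as Adipoq (adiponectin) and C1q-related genes. Of those 37, 23 (62.2%) were in all 4 lists, beside 29 of 41 collagens (70.7%). Of these 37, 30 were in α-KG 1 and 29 in α-KG 2, against 29 and 34 in control 1 and control 2. The laminin G domain, which binds receptors in laminin α chains, was shared by 20 members and 38 other genes, with 16 (80.0%) and 29 (76.3%) in all 4. For the laminin type EGF-like module the others stood higher, 21 of 23 (91.3%) beside 7 of 10 members (70.0%). These others include the netrin genes Ntn1, Ntn3 and Ntn4. Other genes also stood higher for the laminin N-terminal domain, with 6 of 6 beside 4 of 7 members. So they did for the general epidermal growth factor-like domain, with 77.7% beside 65.0% of members. The same order held for von Willebrand factor type A (70.5% beside 63.2%) and fibronectin type III domains (81.5% beside 66.7%). The fibrinogen-like globular domain had 5 of 11 members and 10 of 22 other genes in all 4, 45.5% each. Treatment groups overlapped in both sets: members numbered 8 and 10 with α-KG, against 8 and 9 in control, and other genes 14 and 18, against 13 and 17. These shares are values without a test.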
